A study of Mus musculus with 12 samples.

Results

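Macrophages grown from the bone marrow of wild-type mice were treated with CS-PA/CNP, a material that the series title places in a composite hydrogel for periodontitis and hypertension, and their RNA was compared with that of untreated cells. The comparison used 6 of the 12 RNA-seq libraries of the series, 3 from control cells and 3 from cells given CS-PA/CNP alone, and they were chosen by the treatment in their labels. The other 6 libraries came from cells given PgLPS alone (3) or PgLPS with CS-PA/CNP (3), and they were used here to see what the same material did in stimulated cells. All cells were primary, wild-type, marrow-derived macrophages, so no deletion, transgene or line distinguishes the groups. The labels spell out neither CS-PA/CNP nor PgLPS, and they give no dose, exposure time, strain, sex or age of the mice. A vehicle or an empty carrier is not among the groups analysed here, so the comparison is of the material as a whole with no material. Nothing in the labels says that the 3 libraries of a group came from separate mice or cultures, and the p-values measure only the spread between these libraries, which may be technical.

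Bone marrow-derived macrophages are phagocytes that sense particles, microbial products and damaged cells through scavenger receptors, C-type lectins and Toll-like receptors. Toll-like receptor signals release the transcription factor NF-kB from its inhibitor proteins, and NF-kB then drives cytokines, chemokines and its own inhibitors. A separate arm, controlled by the transcription factor NRF2, answers electrophiles and oxidants: NRF2 is freed from its inhibitor KEAP1, binds antioxidant response elements and raises the enzymes that make and use glutathione, thioredoxin and NADPH. Material taken up by a phagocyte is carried to the lysosome, and proteins made for the cell surface and for secretion are folded by chaperones of the endoplasmic reticulum, whose genes are raised by the unfolded protein response when the folding load grows.

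The 3 control libraries held 15570148 to 17339556 counted reads and the 3 CS-PA/CNP libraries 16130784 to 20082900, with 13232 to 13511 genes detected and 1.60% to 1.82% of reads from mitochondrial genes. The summed level of 14 macrophage markers was 22400 to 24200 CPM (reads scaled to the TMM-adjusted library size) in control and 25200 to 27000 CPM in CS-PA/CNP libraries, and none of them was at 0, so the cells carried the markers of their label in both groups. Most of the sum came from Lyz2, the lysozyme gene, which rose by 0.21 on the log2 scale, while the median change of the 14 markers was -0.04. Of the 14, 3 were called higher, 1 lower and 10 were not called, beside 6.67% higher and 5.61% lower over all tested genes. The part of these markers in the results was not tested. Neutrophil markers summed to 201 to 238 CPM in control and 165 to 218 CPM in CS-PA/CNP libraries, and endothelial markers to 69.0 to 75.5 and 68.2 to 71.2 CPM. B cell, T and NK cell, dendritic cell, mast cell, erythroid and stromal markers each summed to at most 11.3 CPM in any of the 6 libraries, with, among others, the stromal Lum, the T and NK cell Cd3d, Cd8a and Gzma, the mast cell Mcpt4 and Tpsb2, the erythroid Hbb-bt and Hba-a2 and the endothelial Tek at 0 in all of them. The first principal component of the 6 libraries held 44% of the variance and separated the groups, and the second held 16.6% and set control library 1 and CS-PA/CNP library 1 apart from the other 4. Where leaving out both moved a count of 3 or more members by over 1.5 times, both counts are given. Of the 15 list counts of 1 or 2 members, 12 fell when these libraries were left out.

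CS-PA/CNP alone changed 1431 of the 11656 genes tested, 777 higher and 654 lower (edgeR quasi-likelihood test with Benjamini-Hochberg adjustment, adjusted p under 0.05). That is 12.3% of all tested genes in either direction, 6.67% higher and 5.61% lower, and these shares are the background against which the counts for gene groups are read. Most changes were small: the median size among called genes was 0.43 on the log2 scale, 248 of the higher and 212 of the lower genes moved at least 1.5-fold, and 107 and 62 moved at least 2-fold. Among genes that moved at least 4-fold, 23 were higher and 4 lower. The 3 CS-PA/CNP libraries lay wholly above the 3 control libraries for 769 of the higher genes and wholly below them for 649 of the lower genes. Only 13 called genes overlapped, so a lack of overlap adds little to a call. Over all tested genes, called or not, this was so for 15.9% above and 15.5% below. The number of calls fell to 724 when control library 1 and CS-PA/CNP library 1 were both left out, and to 949 without CS-PA/CNP library 3. Scaling by library totals moved the median of all genes by -0.04 and the share of calls that were higher from 54.3% to 41.9%, so the balance of small rises and falls depends on the scaling, while no call changed sign.

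**Figure D1:**
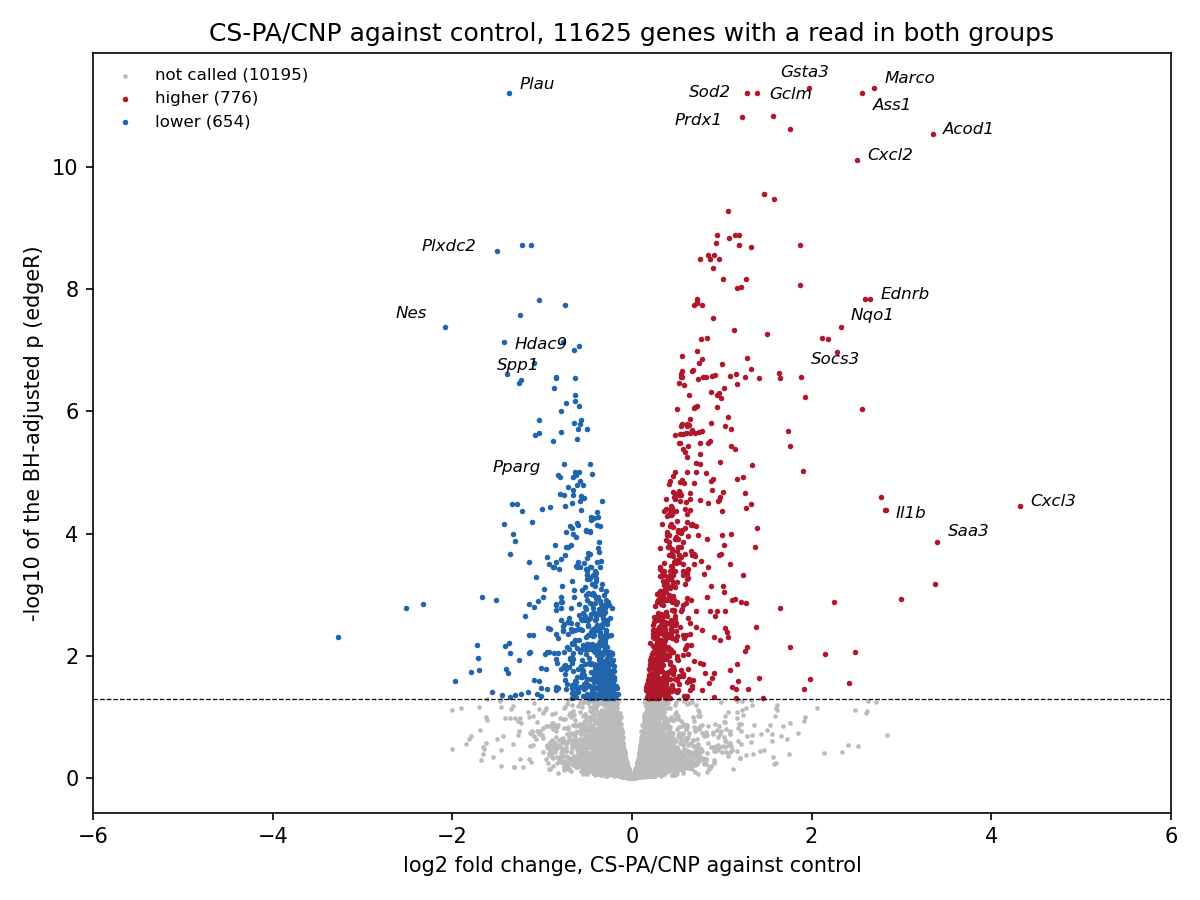
Change with CS-PA/CNP in untreated macrophages. Each point is 1 of the 11625 genes with a read in both groups, placed by its log2 fold change (x axis) and by the negative log10 of its edgeR Benjamini-Hochberg-adjusted p (y axis), red where higher, blue where lower and grey where not called, with the dashed line at 0.05; 31 genes without a read in one group are left out. Marco, Gsta3, Ass1, Sod2 and Gclm lie highest among the rises and Plau stands alone at the same height among the falls.

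The most uniform response was that of the NRF2 antioxidant targets. Of 24 listed genes, 23 were tested, 21 rose and none fell (91.3% higher, beside 6.67% of all tested genes), with a median change of 0.88 over the tested members and 0.00 over all tested genes. The median change of the list, taken in each CS-PA/CNP library against the control mean, was 0.89, 0.83 and 0.93. The members that were tested and not called were Ugdh at 0.06 and Cbr1 at 0.19, and Gpx2 had too few reads to be tested. The number of rises was 20 under scaling by library totals and 20 without control library 1 and CS-PA/CNP library 1.

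NQO1 is a quinone reductase and the classic reporter of NRF2. Nqo1 was at 3.83, 3.12 and 2.18 CPM in the control libraries and at 15.2, 13.9 and 16.8 CPM in the CS-PA/CNP libraries. Every treated library was more than 3 times as high as any control, and the log2 fold change was 2.32 ± 0.18 (SE, edgeR adjusted p = 4.11e-08). Gsta3, a glutathione S-transferase on chromosome 1, stood at 25.8, 26.7 and 26.4 CPM in control and 104, 96.2 and 109 CPM in treated libraries. The 3 controls were nearly equal and the 2 groups did not overlap, for a log2 fold change of 1.97 ± 0.07 (SE, edgeR adjusted p = 5.04e-12).

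Glutathione supply and use moved with them. Gclm encodes the modifier subunit of the enzyme that makes the first step of glutathione synthesis, and it read 263, 262 and 270 CPM in control and 718, 660 and 702 CPM in treated libraries (log2 fold change 1.39 ± 0.06 SE, edgeR adjusted p = 6.25e-12). Its catalytic partner Gclc rose less, by 0.28 on the log2 scale, and was not called in 8 of the 19 alternative settings. Slc7a11, the cystine importer that feeds glutathione synthesis, went from 12.7, 8.75 and 10.1 CPM to 39.6, 34.1 and 33.4 CPM (1.76 ± 0.20 SE, edgeR adjusted p = 3.75e-06). Ptgr1, a reductase of reactive carbonyls and eicosanoids, averaged 41.3 ± 4.44 CPM in control and 140 ± 4.23 CPM in treated libraries (SD, n = 3 each), a log2 fold change of 1.76. Prdx1, an abundant peroxiredoxin, was at 1893, 2018 and 2034 CPM in control and 4602, 4656 and 4605 CPM in treated libraries, a log2 fold change of 1.22 ± 0.05 (SE). For none of these genes did a control library reach the lowest treated library. The remaining called members rose by 0.52 to 1.06 on the log2 scale, among them the catalase gene Cat (1.06), the sulfiredoxin gene Srxn1 (0.97), the glutathione reductase gene Gsr (0.87), the thioredoxin reductase gene Txnrd1 (0.78) and the haem oxygenase gene Hmox1 (0.67); these were singled out with their values known, as were Gclc, Ugdh, Cbr1 and the promoters below.

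Because these genes moved together, their promoters were searched for the antioxidant response element core TGACNNNGC, which NRF2 with its small MAF partners is known to bind, on both strands from 250 bases before to 50 bases after the transcription start. Promoters for 20 of the 24 listed genes were in the RefSeq table (GRCm38.p6), and 7 of them (35%) held the core, beside 14% of 27025 genes. Shown here are 5 members that rose, 5′ to 3′ on the gene's own strand, which is the plus strand for all 5, with the match in capitals and 35 bases on each side. The first carries TGACNNNGC as read, and the other 4 carry it on the opposite strand.
Gsta3 (chr1:21240429-21240507, match 121 bases before the start): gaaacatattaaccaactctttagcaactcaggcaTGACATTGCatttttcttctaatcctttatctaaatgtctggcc
Gclm (chr3:122245388-122245466, match 134 bases before the start): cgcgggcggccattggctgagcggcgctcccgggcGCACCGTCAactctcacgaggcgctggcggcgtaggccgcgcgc
Prdx1 (chr4:116685431-116685509, match 133 bases before the start): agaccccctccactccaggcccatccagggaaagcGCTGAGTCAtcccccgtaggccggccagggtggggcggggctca
Txnrd1 (chr10:82859079-82859157, match 92 bases before the start): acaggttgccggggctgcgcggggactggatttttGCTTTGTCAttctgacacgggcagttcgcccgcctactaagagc
Pir (chrX:164269182-164269260, match 214 bases before the start): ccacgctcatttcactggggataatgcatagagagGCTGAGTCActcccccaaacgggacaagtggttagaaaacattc
The Prdx1 and Pir matches also contain the letters of the AP-1 motif TGANTCA, which 5 of the 20 promoters held (25%, beside 8.97% of all genes). The looser core TGANNNNGC was in 11 of the 20 (55%, beside 45% of all genes). Ugdh, which was not called, also holds TGACNNNGC. These matches are letters in a short window and were not tested against binding. The list was made up of NRF2 targets, so its share beside that of all genes does not measure the response to CS-PA/CNP.

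**Figure D2:**
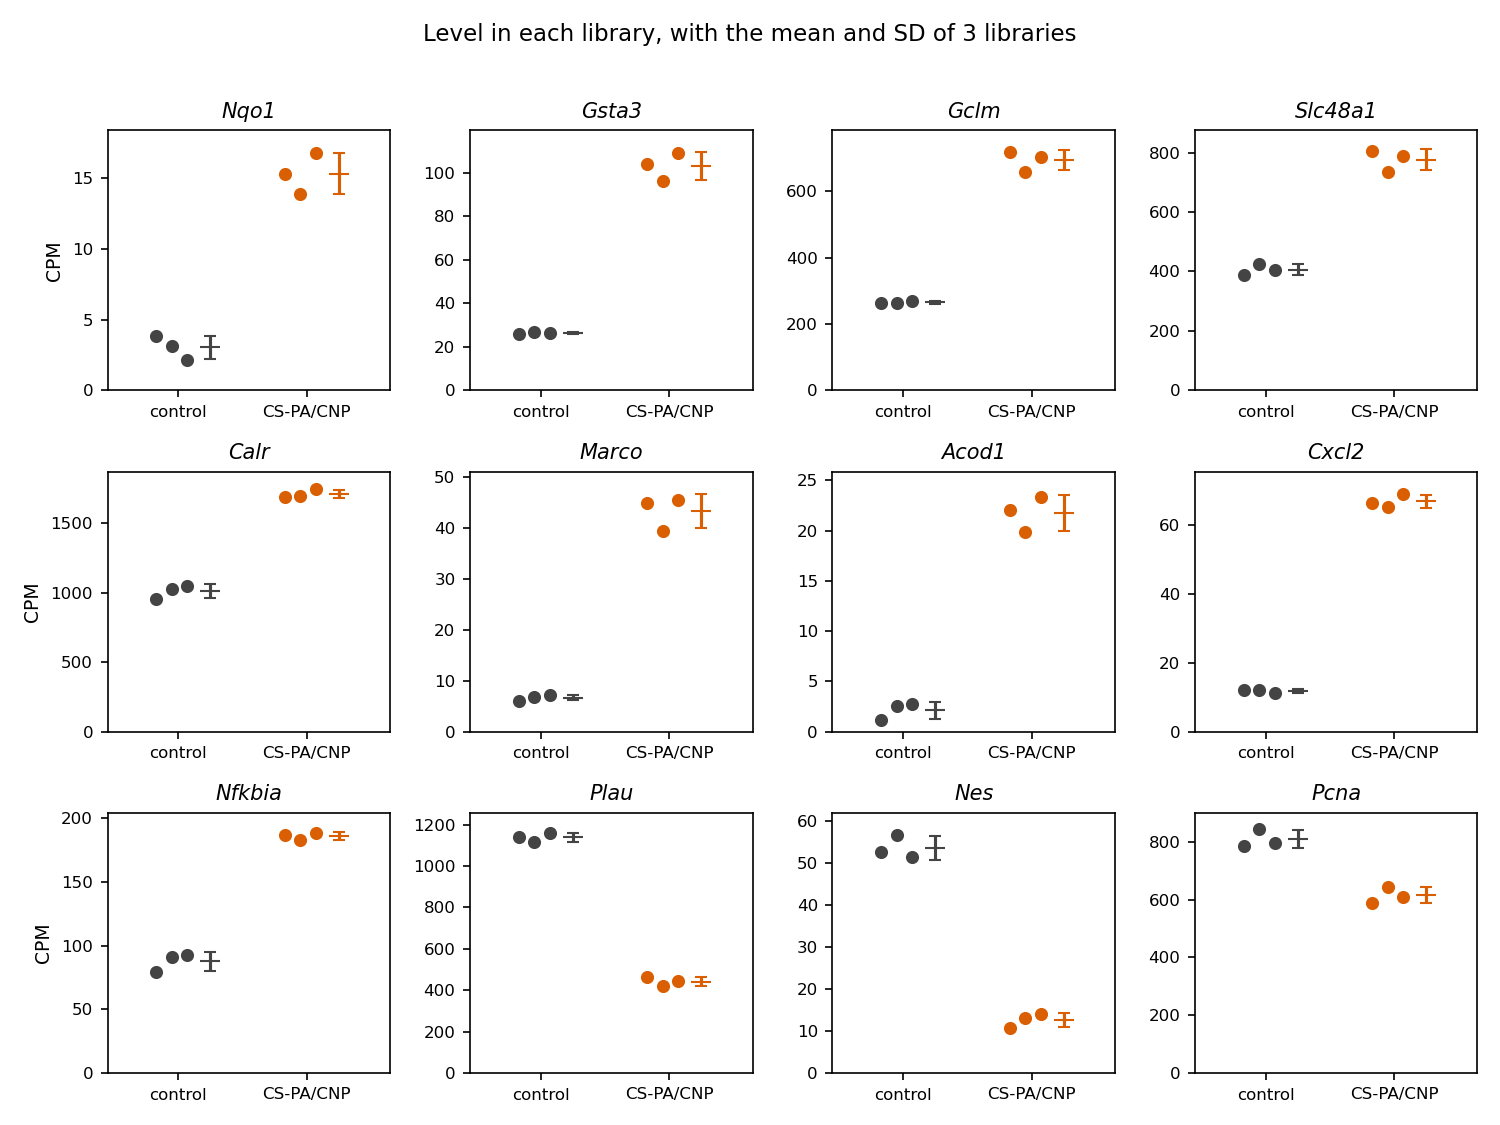
Level of 12 genes in each library. Points are CPM (y axis, from 0) in the 3 control libraries (grey) and the 3 CS-PA/CNP libraries (orange), and the bar beside them is the mean with the SD of the 3. In every panel the 2 groups are apart, with Plau, Nes and Pcna lower after treatment and the other 9 genes higher.

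NADPH is the electron donor for these reductases. Of 10 tested genes of the pentose phosphate pathway and NADPH supply, 5 rose and none fell, and the median change was 0.27. Pgd, which encodes 6-phosphogluconate dehydrogenase, went from 858 ± 37.1 to 1545 ± 58.1 CPM (SD, n = 3 each), a log2 fold change of 0.85 ± 0.05 (SE, edgeR adjusted p = 2.77e-09). Taldo1 (transaldolase) rose by 0.68, the malic enzyme gene Me1 by 1.11 and G6pdx, the gene of the first enzyme of the pathway, by 0.57, each with no overlap between the groups. Of 18 tested haem and iron genes, 8 rose and none fell, with a median of 0.11 over the tested members. Slc48a1, a transporter that brings haem out of the phagolysosome, read 389, 424 and 405 CPM in control and 805, 736 and 788 CPM in treated libraries (0.93 ± 0.06 SE, edgeR adjusted p = 1.73e-09). Fth1, the heavy chain of the iron store ferritin, averaged 16290 ± 1070 CPM in control and 25470 ± 840 CPM in treated libraries (SD, n = 3 each), a log2 fold change of 0.65. The biliverdin reductase gene Blvrb rose by 0.94 and the phagosomal metal exporter gene Slc11a1 by 0.69. Zinc genes did not share the pattern: none of the 12 tested metallothionein and zinc transporter genes rose, and Slc30a4, an intracellular zinc transporter, fell by 0.40 on the log2 scale and was not called in 5 of the alternative settings.

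Chaperones of the endoplasmic reticulum formed another broadly raised group. Of 19 tested genes of its unfolded protein response, 15 rose and none fell, with a median change of 0.50. Calr, the lectin chaperone calreticulin, read 953, 1024 and 1051 CPM in control and 1687, 1697 and 1743 CPM in treated libraries. The treated libraries were close to one another and far above the controls, with a log2 fold change of 0.76 ± 0.05 (SE, edgeR adjusted p = 3.21e-09). Pdia3, a disulfide isomerase, rose by 0.54, the chaperone gene Hsp90b1 by 0.56 and the chaperone cofactor gene Sdf2l1 by 0.70.

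The ATF4 list, which holds genes of the integrated stress response and of serine and one-carbon synthesis, moved in both directions, with 3 of 21 tested members higher, 8 lower and a median of 0.00. Psat1, an enzyme of serine synthesis, fell by 0.79 ± 0.08 on the log2 scale (SE, edgeR adjusted p = 2.20e-06), from 59.2 ± 4.06 to 34.3 ± 2.15 CPM (SD, n = 3 each). The asparagine synthetase gene Asns fell by 0.56, while Slc7a11, which is also an NRF2 target, and the transcription factor gene Atf5 (0.61) rose. Of 16 tested heat shock chaperones, 8 rose and 1 fell. The cytosolic Hsp90ab1 (0.34) and Hspa8 (0.32) rose slightly, and Hspa1b, whose reads cannot be cleanly separated from its near-identical copy Hspa1a, went from 1.57 ± 0.0956 to 3.21 ± 0.519 CPM (SD, n = 3 each). The chaperone cofactor gene Dnajb4 fell by 0.67. The 8 rises were 4 without control library 2, 5 without control library 3, 5 without CS-PA/CNP library 3 and 4 without control library 1 and CS-PA/CNP library 1. Of 23 tested autophagy genes 3 rose and none fell, led by Sqstm1, the selective autophagy receptor and NRF2 target, at 721 ± 52.1 and 1209 ± 33.1 CPM (SD, n = 3 each, log2 fold change 0.75). The other 2, Gabarapl1 and Gabarap (0.22 each), were not called in 11 and 12 of the alternative settings, among them the one without control library 1 and CS-PA/CNP library 1, where 1 of the 3 rises was called.

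**Figure D3:**
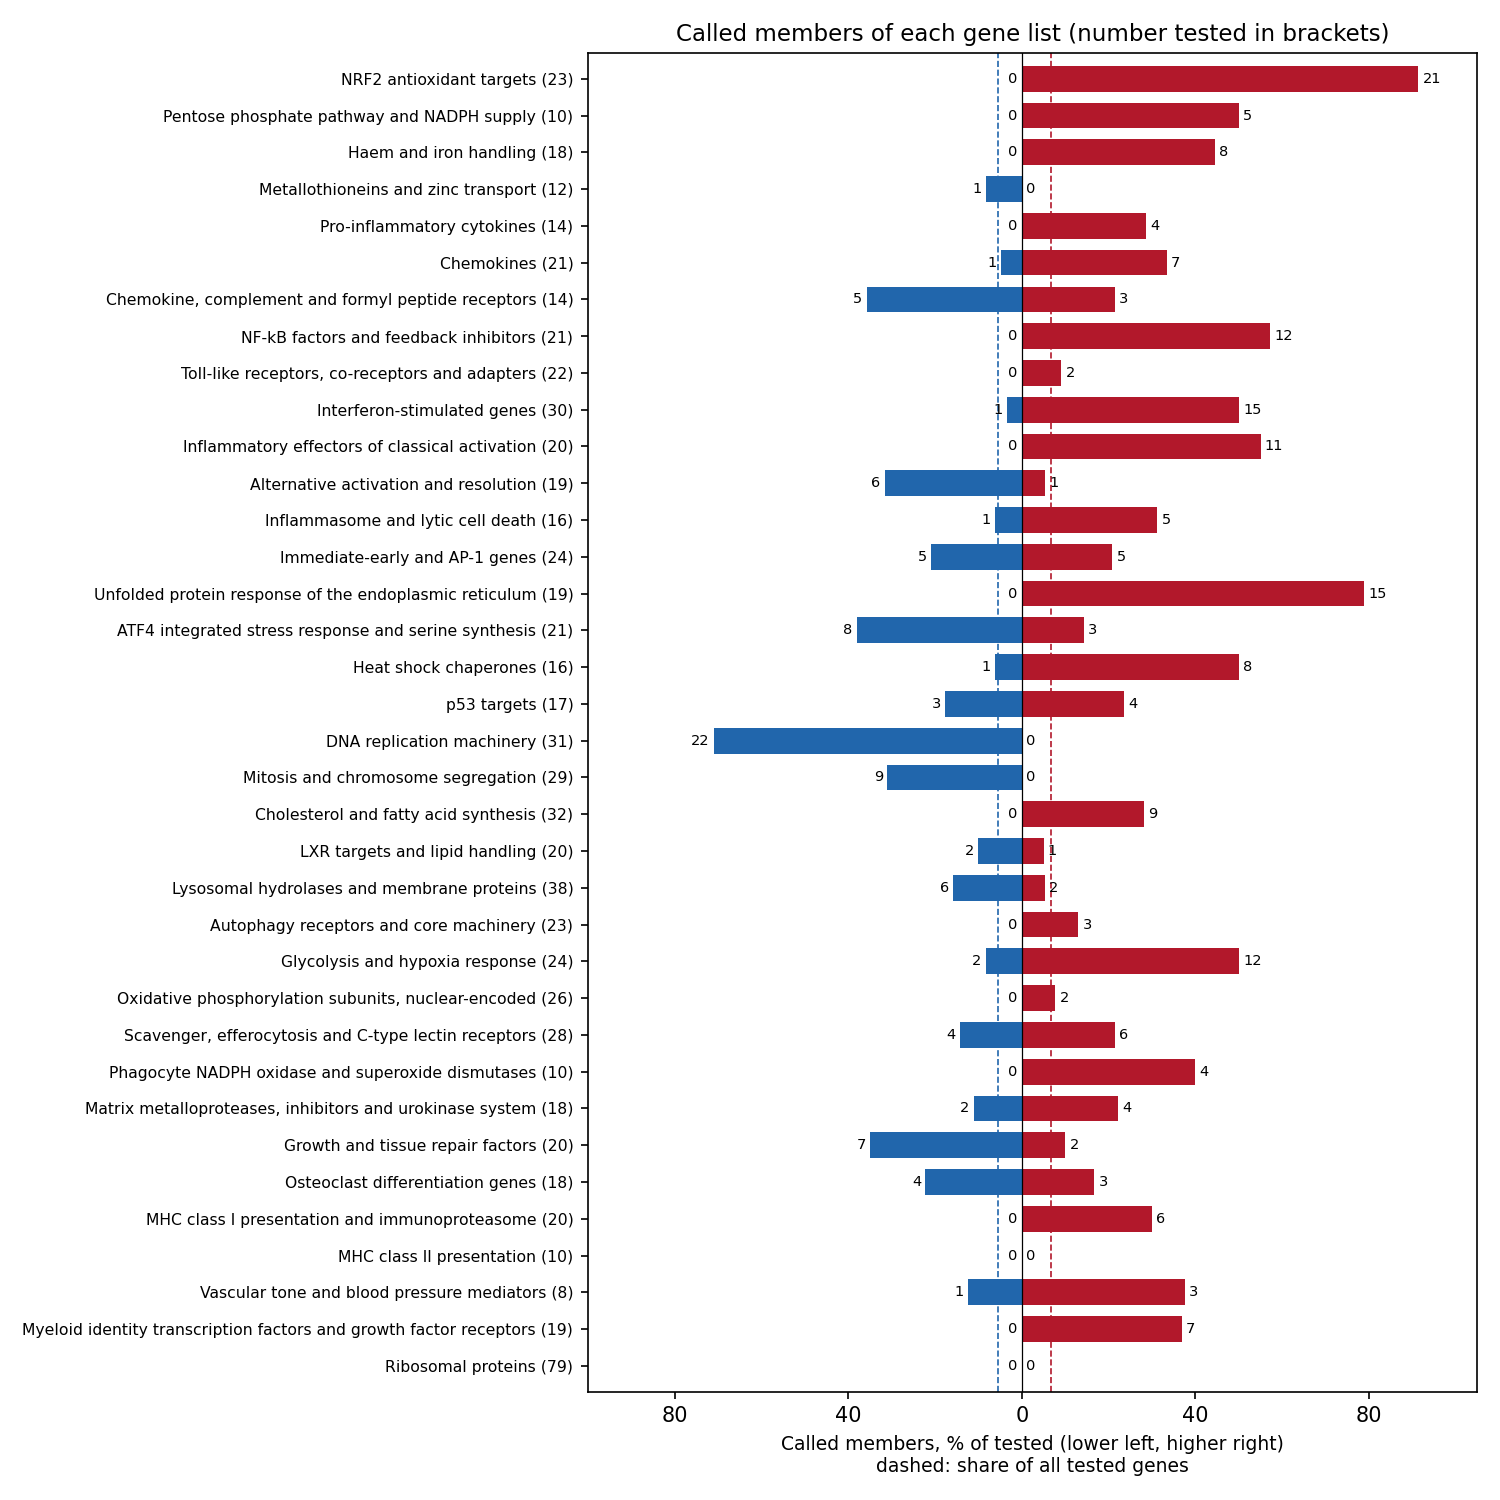
Called members of 36 gene lists, as a share of the members tested (x axis, percent, lower to the left and higher to the right), with the number of called members at each bar and the number tested in brackets. Dashed lines mark the shares over all tested genes, 5.61% lower and 6.67% higher; the NRF2, unfolded protein response and NF-kB lists reach farthest to the right and DNA replication farthest to the left.

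Inflammatory genes rose as well, many from low levels. Of 20 tested effectors of classical macrophage activation, 11 rose and none fell; the median change was 1.02 as fitted and 1.12 with the 2 members that had no read in control set at the limit of 3 reads over the group. Acod1, which makes the metabolite itaconate, read 1.15, 2.51 and 2.74 CPM in control and 22.1, 19.9 and 23.3 CPM in treated libraries, a log2 fold change of 3.35 ± 0.15 (SE, edgeR adjusted p = 2.93e-11). Marco, a scavenger receptor that binds particles and bacteria, went from 6.08, 6.79 and 7.16 CPM to 45, 39.5 and 45.5 CPM (2.70 ± 0.10 SE, edgeR adjusted p = 5.04e-12). The groups were far apart in both genes, and no overlap was a condition for naming them among the largest rises. Saa3, an acute-phase serum amyloid, was less even: its treated libraries were at 7.90, 4.32 and 20.5 CPM against 0.524, 1.21 and 1.46 CPM in control, and its log2 fold change of 3.40 ± 0.52 (SE) was 2.51 without CS-PA/CNP library 3. The C-type lectin Clec4e, a receptor for damaged cells and mycobacterial glycolipid, rose by 1.47, its partner Clec4d by 0.94, the formyl peptide receptor gene Fpr2 by 1.65 and Ptgs2, the inducible cyclooxygenase, by 1.65.

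Nos2, the inducible nitric oxide synthase gene, had 3 reads over the 3 control libraries and 3 over the 3 treated ones, a ratio of 0.963 (exact 95% interval 0.129 to 7.19, for counting error only), so a difference was not detectable at this depth. Serpinb2, a plasminogen activator inhibitor, had 0 reads in control and 11 in treated libraries, at least 3.53-fold higher against the limit of 3 reads over the group, and it was not called (edgeR adjusted p = 0.156). For comparison, PgLPS alone gave 633 and 12612 reads of these genes over its 3 libraries, and it shares the control libraries with the present comparison.

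Of 21 tested chemokines, 7 rose and 1 fell, with a median of 0.20 as fitted and 0.31 with the 2 members without reads in a group at their limit. Cxcl2, a neutrophil attractant, read 12.2, 12 and 11.1 CPM in control and 66.2, 65.2 and 69.0 CPM in treated libraries (2.50 ± 0.12 SE, edgeR adjusted p = 7.79e-11). Its relatives Cxcl1 and Cxcl3 rose from 39 to 289 and from 13 to 278 reads over the 3 libraries, and the T cell attractant Ccl5 from 34 to 246. The Cxcl3 log2 fold change of 4.32 ± 0.58 (SE) ranged from 3.73 without control library 1 to 6.32 without control library 3, so its size is loosely fixed while its direction held. Among 14 receptors for chemokines, complement and formyl peptides, 3 rose and 5 fell: Fpr1, whose product senses bacterial formyl peptides, went from 1.59 ± 0.239 to 6.88 ± 1.21 CPM (SD, n = 3 each), while the chemokine receptor gene Cxcr4 fell by 0.60 on the log2 scale.

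Of 14 tested pro-inflammatory cytokines, 4 rose and none fell (median 0.59 as fitted, 0.49 with Il12b, which had no read in 1 of the groups, at its limit). Tnf, the tumour necrosis factor gene, read 40.9, 41.8 and 44.9 CPM in control and 75.6, 72.7 and 71.3 CPM in treated libraries, with no overlap and a log2 fold change of 0.78 ± 0.08 (SE, edgeR adjusted p = 2.08e-06). Il1b was scarce in both groups, at 0.105, 0.754 and 0.504 CPM and at 2.21, 2.37 and 4.96 CPM (2.82 ± 0.39 SE, edgeR adjusted p = 4.09e-05), and its change was 3.42 without control library 2. Il6 had 2 reads in control and 15 in treated libraries, a ratio of 7.22 (exact 95% interval 1.68 to 65.1, counting error only), and was not called (edgeR adjusted p = 0.0559), though it was in 5 of the 19 alternative settings, without control library 3 among them. Ebi3, a subunit of interleukins of the IL-12 family, rose by 0.49, and Csf1, the macrophage growth factor gene, by 0.68, from 2.87 ± 0.636 to 4.60 ± 0.247 CPM (SD, n = 3 each). The Csf1 call was lost in 5 of the 19 alternative settings, without control library 2 or 3 or any 1 of the CS-PA/CNP libraries (edgeR adjusted p = 0.0501 to 0.133).

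The feedback arm of NF-kB rose with these targets. Of 21 tested NF-kB factors and feedback inhibitors, 12 rose and none fell, with a median of 0.41. Nfkbia, which encodes the inhibitor IkBa and is itself an NF-kB target, read 79, 91.4 and 92.6 CPM in control and 187, 183 and 189 CPM in treated libraries (1.09 ± 0.07 SE, edgeR adjusted p = 1.47e-09). Nfkbie, a second inhibitor of the same family, rose by 1.19, Tnip1, a partner of the ubiquitin-editing brake A20, by 0.78, and Socs3, a brake on cytokine receptors, from 1.25 ± 0.360 to 5.69 ± 0.945 CPM (SD, n = 3 each, log2 fold change 2.18). No control library reached a treated one in any of these 4 genes. Among the sensors above NF-kB, 2 of 22 tested Toll-like receptors, co-receptors and adapters rose and none fell. That was 9.09% higher, near the 6.67% of all tested genes, and the list median was 0. Tlr2, a receptor for bacterial lipopeptides, went from 62.8 ± 1.56 to 118 ± 4.88 CPM (SD, n = 3 each, log2 fold change 0.91), and the inhibitory kinase homologue Irak3 rose by 0.33 but was not called without control library 1 or without CS-PA/CNP library 1. The LPS receptor gene Tlr4 (-0.31, edgeR adjusted p = 0.0546) and its co-receptor gene Cd14 (-0.17, edgeR adjusted p = 0.120) did not pass the test, though they did in 8 and 4 of the 19 alternative settings.

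Interferon-stimulated genes rose in part, with 15 of 30 tested members higher, 1 lower and a median of 0.36. The number of rises was 13 under scaling by library totals and 10 to 13 when 1 library was left out. Ifi205, a nuclear DNA sensor family gene, went from 0.512 ± 0.129 to 1.93 ± 0.0457 CPM, and the guanylate-binding protein gene Gbp2 from 2.76 ± 0.849 to 6.57 ± 0.889 CPM (SD, n = 3 each). Ifit1 and Rsad2, antiviral effectors, rose by 0.84 and 0.61 on the log2 scale. Of 16 tested genes of inflammasomes and lytic death, 5 were higher and 1 was lower: Ninj1, which ruptures the plasma membrane at the end of lytic death, went from 167 ± 17.5 to 311 ± 6.96 CPM (SD, n = 3 each), the necroptosis effector Mlkl rose by 0.84 and the pyrin gene Mefv by 0.98. Among 10 tested genes of the phagocyte NADPH oxidase and the superoxide dismutases, 4 rose and none fell. Sod2, the mitochondrial superoxide dismutase, read 97.6, 94.0 and 99.1 CPM in control and 242, 233 and 232 CPM in treated libraries (1.28 ± 0.05 SE, edgeR adjusted p = 6.25e-12), and the oxidase genes Ncf4 and Cybb and the proton channel gene Hvcn1 rose by 0.57, 0.45 and 0.68.

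Among 24 immediate-early and AP-1 genes, 5 rose and 5 fell, led by the survival gene Ier3 at 5.44 ± 0.723 and 13.7 ± 1.60 CPM (SD, n = 3 each). The transcription factor gene Egr1 fell by 0.84, the phosphatase gene Dusp6 rose by 0.54 and Junb by 0.28. These counts were loose, at 3 rises without control library 1, control library 2 or CS-PA/CNP library 1, and 2 falls without control library 2 or CS-PA/CNP library 1. Without control library 1 and CS-PA/CNP library 1 together they were 2 and 1. Of 28 tested scavenger, efferocytosis and C-type lectin receptors, 6 rose and 4 fell. Clec4n, the dectin-2 gene, went from 11.5, 13.3 and 13.8 CPM to 52.0, 40.9 and 48.4 CPM (1.87 ± 0.12 SE, edgeR adjusted p = 1.90e-09) and the inhibitory Fc receptor gene Fcgr2b rose by 0.46.

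The largest rises among genes that reached 5 CPM and did not overlap also held 3 genes outside the lists and 1 of the vascular list. Ass1, argininosuccinate synthase, which remakes arginine from citrulline, read 7.97, 7.14 and 7.44 CPM in control and 49.7, 38.5 and 45 CPM in treated libraries (2.56 ± 0.10 SE, edgeR adjusted p = 6.18e-12). Tarm1, an activating receptor of myeloid cells, went from 1.86 ± 0.541 to 11.2 ± 2.42 CPM and H2-M2, a non-classical MHC class I gene whose relatives are similar in sequence, from 1.56 ± 0.145 to 7.65 ± 1.37 CPM (SD, n = 3 each). Ednrb, the endothelin receptor type B and the member of the vascular list, read 2.04, 1.06 and 2.41 CPM in control and 10.1, 10.8 and 13.3 CPM in treated libraries (2.65 ± 0.19 SE, edgeR adjusted p = 1.47e-08). That every treated library was above every control in these 4 genes was a condition of their choice. Of the 8 tested vascular mediators 3 rose and 1 fell, the others being Ptgs2, Agtrap (an angiotensin receptor-associated protein, 0.33) and Ramp1, a calcitonin family receptor partner, which fell by 0.95 and was not called without CS-PA/CNP library 3 (edgeR adjusted p = 0.0680). The endothelin ligand gene Edn1 had 0 reads in control and 3 in treated libraries, which allows no fold.

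Among genes that reached 5 CPM with no overlap between the groups, Nes had the largest called fall. Nes, which encodes the intermediate filament nestin, read 52.6, 56.7 and 51.5 CPM in control and 10.7, 13.1 and 14.1 CPM in treated libraries, and fell by 2.08 ± 0.16 on the log2 scale (SE, edgeR adjusted p = 4.11e-08). Plau, the urokinase plasminogen activator, fell from 1139, 1117 and 1160 CPM to 461, 420 and 442 CPM (log2 fold change -1.37 ± 0.06 SE, edgeR adjusted p = 6.18e-12). That all treated libraries were below every control in both genes was a condition of their choice. The membrane protein gene Plxdc2 fell by 1.5, the histone deacetylase gene Hdac9 by 1.42, the transcription factor genes Npas4 and Sox4 by 1.42 and 1.39, the growth factor homologue Fgf13 by 1.36, the neutral sphingomyelinase gene Smpd3 by 1.34 and Hpgd, which degrades prostaglandins, by 1.32. Ctnnd2, a catenin family gene, fell by 1.37 but was not called without control library 1 (edgeR adjusted p = 0.0704), the library in which it was highest.

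Genes of DNA replication fell together. Of 31 tested members of the replication machinery, 22 fell and none rose (71.0% lower, beside 5.61% of all tested genes), with a median of -0.44. Pcna, the sliding clamp, read 786, 845 and 797 CPM in control and 590, 645 and 610 CPM in treated libraries, a small and clear fall of 0.40 ± 0.07 on the log2 scale (SE, edgeR adjusted p = 5.32e-04). The helicase subunits Mcm2 and Mcm4 fell by 0.43 and 0.54 and the ribonucleotide reductase subunit Rrm1 by 0.51, with no overlap. The 22 falls were 15 to 20 when 1 library was left out and 9 without control library 1 and CS-PA/CNP library 1 together. Of 29 tested mitosis genes, 9 fell and none rose (median -0.36), among them Mki67, the antigen of cycling cells, from 65.3 ± 1.57 to 47.9 ± 5.33 CPM (SD, n = 3 each), the cyclin-dependent kinase gene Cdk1 by 0.54, Smc2 by 0.45 and Top2a by 0.48. That number was 4 without control library 1, 4 without CS-PA/CNP library 1 and 1 without both. In bulk RNA, fewer cells in cycle and less RNA per cycling cell cannot be told apart.

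Alternative activation and tissue repair genes leaned the same way. Of 19 tested genes of alternative activation and resolution, 6 fell and 1 rose (median -0.26 as fitted, -0.25 with Ccl17, which had no read in 1 of the groups, at its limit). Pparg, a lipid-sensing nuclear receptor, fell from 71.3, 77.8 and 73.0 CPM to 37.3, 46.2 and 43.6 CPM (log2 fold change -0.81 ± 0.10 SE, edgeR adjusted p = 1.17e-05). The mannose receptor gene Mrc1 fell by 0.52 and the interleukin-1 receptor antagonist gene Il1rn by 0.51, each without overlap, while the IL-4 receptor gene Il4ra rose by 0.63. Arg1, which cleaves arginine and is the usual marker of this state in mice, was at 2.78, 1.21 and 1.46 CPM and at 2.43, 1.94 and 3.26 CPM, with overlap and no call (edgeR adjusted p = 0.484). Il10, the anti-inflammatory cytokine gene, was at 2.24 ± 0.389 and 2.09 ± 0.289 CPM (SD, n = 3 each, edgeR adjusted p = 0.828).

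Of 20 tested growth and repair factors, 7 fell and 2 rose. Spp1, the secreted matrix protein osteopontin, fell from 1927, 1773 and 2006 CPM to 1101, 984 and 1083 CPM (log2 fold change -0.85 ± 0.08 SE, edgeR adjusted p = 2.85e-07), the growth factor gene Hbegf from 3.01 ± 0.459 to 0.933 ± 0.430 CPM (SD, n = 3 each), and the angiogenic factor gene Vegfa by 0.45. Angptl2 rose by 0.31. The 7 falls were 4 without control library 2, CS-PA/CNP library 2 or CS-PA/CNP library 3, and neither rise was called without control library 1 and CS-PA/CNP library 1 together. Of 18 tested osteoclast differentiation genes, 4 fell and 3 rose: Dcstamp, the fusion receptor of osteoclasts, fell from 41.7 ± 2.85 to 22.8 ± 0.606 CPM (SD, n = 3 each) and the proton pump subunit gene Atp6v0d2 by 0.50, while the tyrosine kinase gene Src rose by 0.62. Of 18 tested matrix protease and urokinase genes 4 rose and 2 fell, Plau with the larger of the called falls and Mmp14, a membrane collagenase, with the largest of the called rises, from 9.13 ± 1.83 to 22.3 ± 2.18 CPM (SD, n = 3 each). Mmp8 (0.65) and Mmp19 (0.30) rose too, and the number of rises was 1 without control library 1 and CS-PA/CNP library 1.

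The energy and lipid lists had small median changes. Of 24 tested glycolysis and hypoxia genes, 12 rose and 2 fell, with a median of 0.26, and the number of rises was 6 without control library 1 and CS-PA/CNP library 1. The lactate exporter gene Slc16a3 rose by 0.76, the pyruvate kinase gene Pkm by 0.41, Pgk1 by 0.39 and Aldoa by 0.35. Of 26 tested oxidative phosphorylation genes, 2 rose and none fell, and neither call, Cox5a at 0.42 or Ndufb8 at 0.40, held in all settings. That was 7.69% higher, near the 6.67% of all tested genes, with a median of 0.04. Of 32 tested genes of cholesterol and fatty acid synthesis, 9 rose and none fell (median 0.12), led by Acss2, which activates acetate, at 3.15 ± 0.892 and 10.5 ± 1.45 CPM (SD, n = 3 each). The squalene epoxidase gene Sqle rose by 0.35 and Mvd by 0.50, and the 9 rises were 5 without control library 3, 4 without CS-PA/CNP library 1 and 4 without that library and control library 1. Of 20 tested LXR and lipid handling genes 2 fell, the lipoprotein lipase gene Lpl (-0.37) and the cholesterol exporter gene Abcg1 (-0.34), and Lipa rose by 0.15. These were 10% lower and 5% higher, beside 5.61% and 6.67% of all tested genes, and the list median was 0.01. Abcg1 was not called in 4 and Lipa in 10 of the 19 alternative settings.

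None of 79 tested ribosomal protein genes was called in either direction (median 0.10; 2 were called with no filter on low counts and 11 with only the 2 groups in the fit). None of 10 tested MHC class II genes was called (H2-Aa, -0.10). Of 20 tested MHC class I and immunoproteasome genes 6 rose and none fell, among them H2-K1 (0.40) and H2-Q4 (0.72), whose reads may be split among related genes, Tapbpl (0.46) and Psme2 (0.38); the number of rises was 3 without control library 1, and 3 without it and CS-PA/CNP library 1. Of 38 tested lysosomal genes 6 fell and 2 rose, and the falls were 3 without control library 1 and CS-PA/CNP library 1 and 9 under scaling by library totals. The cysteine protease gene Lgmn fell by 0.43, while the cathepsin gene Ctsz rose by 0.42. Of 19 tested myeloid identity genes 7 rose and none fell, among them the shared receptor chain gene Csf2rb (0.53), Cebpd (0.69) and Bhlhe41 (0.46). Of 17 tested p53 targets 4 rose and 3 fell: the death receptor gene Fas went from 2.60 ± 0.271 to 6.91 ± 0.475 CPM (SD, n = 3 each), the kinase gene Plk2 fell by 0.74 and Btg2 by 0.53, and Bax rose by 0.38. The number of p53 rises was 1 without control library 1 or CS-PA/CNP library 3, and 2 without CS-PA/CNP library 1 or CS-PA/CNP library 2. Without control library 1 and CS-PA/CNP library 1 together, 1 rise and 1 fall were called.

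The same material was also given to PgLPS-treated macrophages, and that contrast shares no library with the one described here, only the fitted spread. Adding CS-PA/CNP to PgLPS raised 1098 and lowered 1170 genes (9.42% and 10% of those tested), or 1497 and 940 with scaling by library totals. Of the 777 genes that rose in unstimulated cells, 200 (25.7%, and 18.2% of the 1098) also rose in PgLPS-treated cells, 227 (29.2%, and 19.4% of the 1170) fell there and 350 were not called. Of the 654 that fell, 63 (9.63%, and 5.38% of the 1170) fell there too, 179 (27.4%, and 16.3% of the 1098) rose and 412 were not called. The effect itself differed between the 2 states for 1841 genes (15.8% of all tested, edgeR interaction term, adjusted p under 0.05). These included 851 of the 1431 (59.5%) and all 406 that were called in opposite directions. The interaction is the difference between the 2 effects, so it reuses the values of both. Calls in opposite directions nearly fix it in advance, and the 406 are no added support. Of the 263 genes called in the same direction, 202 showed no called interaction; the 263 were 162 without control library 1 and CS-PA/CNP library 1.

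The groups of genes divided along this line. NRF2 targets rose in both states, with 17 of the 23 higher and 1 lower in PgLPS-treated cells. Nqo1 changed by 2.32 without and 2.10 ± 0.18 (SE) with PgLPS, Gsta3 by 1.97 and 1.61, Gclm by 1.39 and 1.10, and Acss2, from the lipid list, by 1.74 and 2.02. The interaction was called for 10 of the 23, beside 15.8% of all tested genes. Gsta3 and Gclm were among them, with a smaller rise with PgLPS than without. Another was Slc7a11, which changed by -0.27 with PgLPS (edgeR adjusted p = 0.267 there). Gsr was the member that fell, with 0.87 without and -0.32 with PgLPS. Endoplasmic reticulum chaperones were also shared, with 16 of 19 higher in PgLPS-treated cells and 1 called interaction: Calr changed by 0.76 and 0.70, Pdia3 by 0.54 and 0.51.

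Many inflammatory genes went opposite ways. None of the 21 NF-kB genes rose and 17 fell when CS-PA/CNP was added to PgLPS, where 12 had risen without it, and among the 20 effectors none rose and 19 fell. Acod1 changed by 3.35 without and -0.74 with PgLPS, Socs3 by 2.18 and -1.13, Tlr2 by 0.91 and -1.01, and Il1b by 2.82 and -2.62. Each had a called interaction, which effects of opposite sign make likely in advance. Of the 21 tested chemokines, 11 fell and 2 rose with PgLPS. Cxcl1 and Cxcl3 were not called there (-0.29 and -0.18), and the dectin-2 gene Clec4n rose in both states (1.87 and 0.30). The interaction was called for these genes as well. The starting levels of the states were unlike: Acod1 averaged 2.14 CPM in control and 3212 CPM in PgLPS cells, and Il1b 0.454 CPM in control and 3064 CPM with PgLPS. Replication genes showed the reverse, with 22 lower in unstimulated cells and 9 higher and 1 lower of the same 31 in PgLPS-treated cells, and a called interaction for 21. Pcna changed by -0.40 and 0.68. Plau changed by -1.37 without and 1.23 with PgLPS, and Pparg by -0.81 and 1.19. Both had a called interaction, again likely in advance from the opposite signs.

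**Figure D4:**
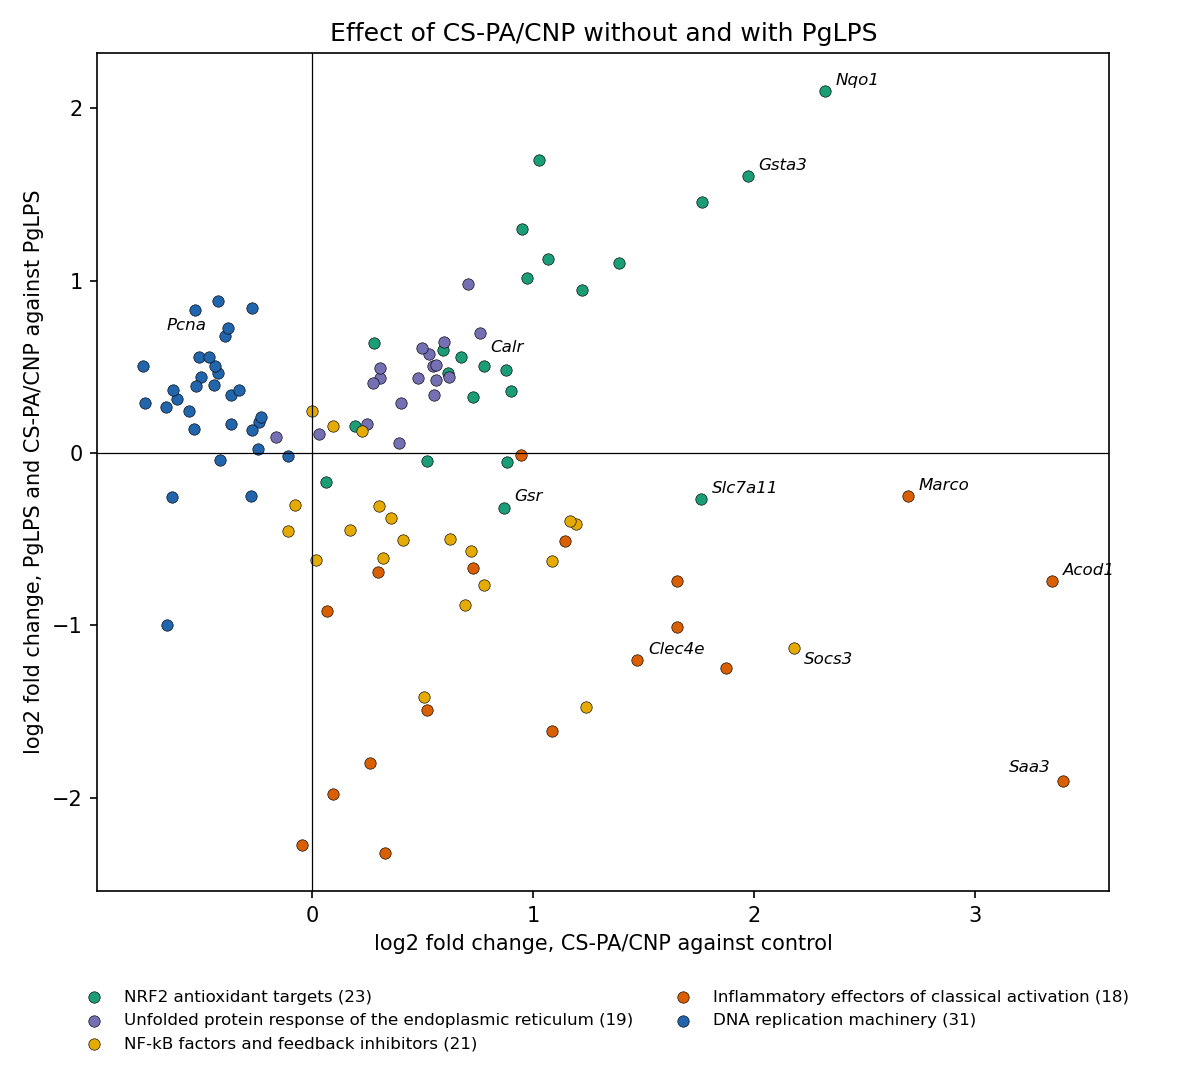
Effect of CS-PA/CNP without PgLPS (x axis, log2 fold change against control) and with it (y axis, log2 fold change of both agents against PgLPS alone). Each point is a tested member of 5 gene lists, leaving out Serpinb2 and Cfb, which had no read in control; NRF2 targets and endoplasmic reticulum chaperones lie mostly to the upper right, NF-kB genes and effectors mostly to the lower right and replication genes mostly to the upper left.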

How the data were processed

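RNA-seq of 12 libraries was deposited as 1 table of raw read counts per gene with gene names (21899 genes); the FPKM columns beside them were not used. Per the submitters' processing notes, the tools were HISAT2 (2.0.5), HTSeq (0.9.1), cutadapt (1.15) and DESeq (1.30.0), without their roles; per the labels' protocols, libraries of 400 to 500 bp passed 15 PCR cycles and a NovaSeq run. The genome build and strand setting were not given in the sources used here, and overlapping or antisense transcripts may share reads. PCR copies were not marked by molecular identifiers, and intervals cover counting error only. The column letters C, M, L and LM were matched to the treatments in the labels. Genes passing edgeR's filterByExpr (11656, 99.97% of reads) were fitted with edgeR 4.0.16 (quasi-likelihood, R 4.3.3), 1 mean per group over all 12 libraries, TMM scaling, 2-sided tests and Benjamini-Hochberg adjustment over all tested genes at 0.05. CPM are TMM-scaled. SE is the absolute log2 fold change divided by the square root of F. "Rose" and "fell" mark called genes. The test was checked on counts drawn with known fold changes.

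The gene lists (36, with 925 of 933 members in the table when the cell type markers are included) and the rule for naming genes were set with earlier results of these data known. Some genes, such as Atp6v0d2 of the lysosomal and osteoclast lists, belong to more than 1 list and are counted in each. The list counts are therefore not independent. Named are the 10 largest rises and falls (at least 5 CPM, no overlap, no clone names), up to 4 members of each list by adjusted p, Tnf, Il1b, Il6, Il10, Nos2 and Arg1, and the 6 largest interactions each way; others are said to be chosen after their values were seen. A few genes that this rule takes are not reported here. Alternatives were RLE factors, library totals, no filter, DESeq2 1.42.0, only 2 groups in the fit, each library left out, and, added after seeing the data, a replicate block and control library 1 with CS-PA/CNP library 1 left out.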

Additional observations from a re-analysis of the deposited data

Results flagged for a closer look

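The effect of CS-PA/CNP differed between unstimulated and PgLPS-treated macrophages for 1841 genes by the edgeR interaction term (Benjamini-Hochberg adjusted p under 0.05), of which 869 were higher and 972 lower with PgLPS present. Scaling by library totals changed that split to 1255 higher and 715 lower. The genes with the most different effects in each direction are given next, with the interaction as the log2 fold change with PgLPS minus that without.

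Among the genes whose change was lower with PgLPS, Il1b had an interaction of -5.44 (edgeR adjusted p = 6.20e-09). Its 3 libraries with PgLPS read 2948, 3151 and 3092 CPM and those with both agents 494, 474 and 528 CPM, while CS-PA/CNP alone took it from at most 0.754 to at least 2.21 CPM. Saa3 had an interaction of -5.30, with 13140 CPM on average in PgLPS and 3517 CPM in both agents. For Il6 it was -5.68, with 2069 reads over the PgLPS libraries, 260 over those with both agents and 2 in control. Serpinb2, Itgb8 and Edn1 had no read in control, so that a fitted size would depend on the constant added to 0; the adjusted p of their interaction was 0.00515, 0.00393 and 0.0391. Itgb8, an integrin subunit, had 17 reads with CS-PA/CNP alone, at least 5.46-fold above the limit of 3 reads over the control group, and its call in unstimulated cells was lost whenever 1 of the 6 libraries was left out.

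Among the genes whose change was higher with PgLPS, Klhl3, an adapter of a ubiquitin ligase, had an interaction of 3.79, Nptx1 (neuronal pentraxin) 3.47, Plekhh2 3.35, Dmpk (a muscle-type protein kinase) 2.97, Npas4 2.89 and Cmbl (a hydrolase) 2.76. All 6 were low in PgLPS-treated cells. Nptx1 read 88.6, 96.5 and 77.8 CPM in control and 41.1, 46.1 and 41.0 CPM with CS-PA/CNP alone. It was at 0.336 CPM on average with PgLPS and 1.85 CPM with both agents, so its rise there began from few reads. The Dmpk call in unstimulated cells was not made by DESeq2 (adjusted p = 0.131). Dmpk was also uneven with both agents, at 3.13, 1.39 and 0.409 CPM, which overlaps the 0.458, 0.325 and 0.54 CPM with PgLPS alone. Cmbl had 5, 3 and 1 reads in the PgLPS libraries.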

How the results depend on the processing

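No call among the 1431 genes changed sign under any of the 19 alternative settings. The number of calls was 1431 with RLE factors, 1457 with library totals, 1529 without the filter on low counts, 1638 with DESeq2 and 1982 with only the 2 groups in the fit. It was 949 to 1641 when 1 of the 12 libraries was left out, lowest without CS-PA/CNP library 3, 724 without control library 1 and CS-PA/CNP library 1, and 169 when at least 2-fold was also asked for. With the replicate number as a block it was 2033. The labels do not tie these numbers to a mouse, culture or day, and same-numbered control and CS-PA/CNP libraries deviated with correlations of 0.06, 0.05 and 0.03. Each control library correlated best with its own number, which is a hint from the data and not the design. The number called the same way with and without PgLPS, 263, was 190 to 305 with 1 library left out, 408 with the block and 162 without control library 1 and CS-PA/CNP library 1. The 406 called opposite ways were 317 to 425, the 1841 interactions 1515 to 1844 and the 2268 calls in PgLPS-treated cells 1869 to 2350 with 1 library left out. The cause of these changes was not tested.

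Of 168 named genes, 30 lost their call in at least 1 setting, led by Gabarap (12), Gabarapl1 and Ndufb8 (11 each), Lipa (10), Gclc (8) and Itgb8 (7). Changes of sign were seen in genes that were not called: Nos2, with 3 reads over the controls and 3 over the CS-PA/CNP libraries, ranged from -0.93 to 3 with 1 library left out (3 without control library 1, 0.43 and 0.04 without CS-PA/CNP libraries 2 and 3) and was at 2.12 without control library 1 and CS-PA/CNP library 1, where Il10 was at 0.01. Counts of 1 or 2 members in a list often went to 0 or 1 when a library was left out, as for the oxidative phosphorylation, lysosome, LXR, zinc and vascular lists. Depth limits Il6, Nos2, Serpinb2, Itgb8 and Edn1 most, each with at most 17 reads over the 3 control or over the 3 CS-PA/CNP libraries.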

Other observations

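The genes that moved at least 2-fold with CS-PA/CNP in both states were counted over all tested genes. List members reported above, such as Nqo1 and Il1b, are among them. Those named here were singled out after their values were seen. There were 20 genes higher in both, 2 lower in both, 17 higher without and lower with PgLPS, and 13 lower without and higher with it. In unstimulated cells, 107 of the 11656 tested genes rose and 62 fell at least 2-fold. Prdx6, a peroxiredoxin that reduces phospholipid peroxides, read 81.6, 79 and 89.5 CPM in control and 257, 234 and 255 CPM with CS-PA/CNP, a log2 fold change of 1.57 ± 0.07 without PgLPS and 1.40 ± 0.07 with it (SE). Gss, the glutathione synthetase gene, changed by 1.14 and 1.60, the glutathione-processing Ggt5 by 1.37 and 1.69, and the glutathione S-transferase gene Mgst2 by 1.39 and 1.57. No interaction was called for these 4 genes, though their choice for a rise of at least 2-fold in both states favours that. Panx1, a membrane channel that releases ATP, changed by 1.27 and 1.22, and Pcx, the pyruvate carboxylase gene, by 1.34 and 1.22.

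Among the genes that went opposite ways, Rgs1, a brake on chemokine receptor signals, read 229, 215 and 232 CPM in control and 97.9, 98.0 and 94.6 CPM with CS-PA/CNP. It changed by -1.22 ± 0.07 without PgLPS and 1.02 ± 0.09 with it (SE). Kitl, the stem cell factor gene, changed by -1.09 and 1.13. In the other direction, the phosphodiesterase gene Pde4b changed by 1.16 and -1.19, the adenosine receptor gene Adora2b by 1.10 and -1.36 and the prostaglandin E synthase gene Ptges by 1.87 and -1.25. The interaction was called for all 5 genes, which their choice for opposite changes made likely in advance. Their PgLPS-alone levels were far from control: Rgs1 averaged 20.4 CPM and Pde4b 146 CPM with PgLPS, beside 225 and 7.06 CPM in control.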
